A study of Mus musculus with 12 samples.

Results

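Cultured cells labelled as airway smooth muscle cells (SMCs) were compared with cultured PDGFR-β+ cells of the lung, both treated with scrambled (Scr) RNA, to describe how the cell types differed at baseline before any loss of Klf4. The comparison used 3 SMC and 3 PDGFR-β+ libraries of bulk RNA-seq, 6 of the 12 libraries of the study, whose other 6 libraries received siKlf4, a small interfering RNA against Klf4. Of the 52636 genes in the deposited tables, 13800 had a mean of at least 1 TPM (a transcript level scaled by gene length and by the total of the library) over the 6 libraries, and 13317 of these were compared after leaving out 467 genes on chromosomes X and Y and 16 without a known position. Vgf, at a mean of 1.00 TPM, lay just inside this limit and D10Wsu102e, at 0.999 TPM, just outside it. Of the genes compared, 357 had a mean under 1 TPM in the SMC libraries and 546 in the PDGFR-β+ libraries, so they passed only through the other cell type. TPM divides the reads of a gene by its length and scales each library to the same total, so the values can be compared between genes, but TPM does not tell how many reads lay behind a value and no counting error can be given.

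The SMCs were wild-type C57BL/6 cells bought from a supplier and are given without an age. Their titles say lung airway, whereas their source and tissue labels say trachea, and the number of animals or lots behind them is not given in the sources used here. The labels describe the PDGFR-β+ cells as wild-type C57BL/6 lung cells from mice 12 weeks old, while the methods of the study describe cells that carried a tamoxifen-inducible Pdgfrb-CreERT2 and a ROSA26R(Zs/+) reporter and were sorted by their green fluorescence before culture. Before transfection the SMCs grew in a smooth muscle medium with growth factors and the PDGFR-β+ cells in DMEM, and after it both were kept in the smooth muscle medium. Cell type, tissue, supplier, sorting, earlier medium and table of origin therefore all changed together and cannot be told apart. The labels do not say whether the libraries of a group came from separate animals or cultures, and the p-values measure only the spread between them. As these are bulk cultures, fewer cells of a type and less RNA per cell cannot be told apart either. Values are given in the order of the SMC library without a number, then numbers 2 and 3, and of PDGFR-β+ libraries 1, 2 and 3.

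Smooth muscle cells of the airway wall contract through a specialised set of actin, myosin and calponin proteins, most of whose genes are driven by serum response factor and its partner myocardin through a DNA element called the CArG box. PDGFR-β is a receptor for platelet-derived growth factors found on pericytes, fibroblasts and some vascular smooth muscle. Mesenchymal cells also keep a record of where in the embryo they arose. HOX genes, which sit in 4 clusters and are switched on in order along the body axis, and other regional factors such as T-box and LIM-homeobox genes often stay on in culture for many divisions.

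The cell types differed widely. At an adjusted p under 0.05 by limma and a difference of at least 1 on the log2(TPM + 1) scale, which is 2-fold, 1160 genes were higher in the SMC libraries (8.71% of those tested) and 730 were higher in the PDGFR-β+ libraries (5.48%). These genes are referred to as called. The groups of a gene did not overlap where every library of a cell type was above every library of the other. This held for 7803 of the 13317 genes tested. Of the called genes, 1883 did not overlap and 7 did, so a lack of overlap adds little to a call. Of the genes that passed the filter only through the other cell type, 163 of the 357 low in SMC libraries and 298 of the 546 low in PDGFR-β+ libraries were called, against 1429 of the 12414 with both means at 1 TPM or more. The median log2 difference over all genes, SMC minus PDGFR-β+, was 0.01. The first principal component held 81.5% of the variance and separated the cell types. On the second, the SMC library without a number stood apart, at 24.0 against -8.73 and -17.8 in the other SMC libraries. Each library held 20590 to 21705 genes with a value over 0 TPM and mitochondrial genes took 3.43% to 4.38% of each library.

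The marker genes did not follow the smooth muscle label. Acta2, the α-smooth muscle actin gene (mm10 chr19:34241090-34255590), stood at 1031, 1522 and 1567 TPM in the SMC libraries and 4594, 4545 and 3969 TPM in the PDGFR-β+ libraries, a log2 difference of -1.69 (SE 0.17, adjusted p = 0.000148). Every PDGFR-β+ library was above every SMC library. Myh11, the smooth muscle myosin heavy chain, was low in both, at 15.2, 16.0 and 15.7 TPM and 23.0, 20.5 and 18.8 TPM, and its log2 difference of -0.38 did not reach 2-fold. Pdgfrb, the gene by which the PDGFR-β+ cells were marked for sorting, was higher in them but also abundant in the SMC libraries, at 474, 423 and 444 TPM against 213, 216 and 214 TPM (log2 difference -1.06, SE 0.073, adjusted p = 2.86e-05). The fibroblast genes Pdgfra, which encodes the sister receptor PDGFR-α, and Tcf21, a transcription factor of lung fibroblasts, were both higher in the SMC libraries. Pdgfra was at 511, 384 and 357 TPM against 180.3, 151 and 175 TPM and Tcf21 at 18.9, 14.2 and 13.0 TPM against 1.16, 1.04 and 1.10 TPM, with log2 differences of 1.29 and 2.95. The groups of both genes did not overlap, as was the case for 7803 of the 13317 genes tested. Since Acta2 and Myh11 were not higher in the libraries labelled SMC, these are called SMC-labelled libraries from here on.

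**Figure D1:**
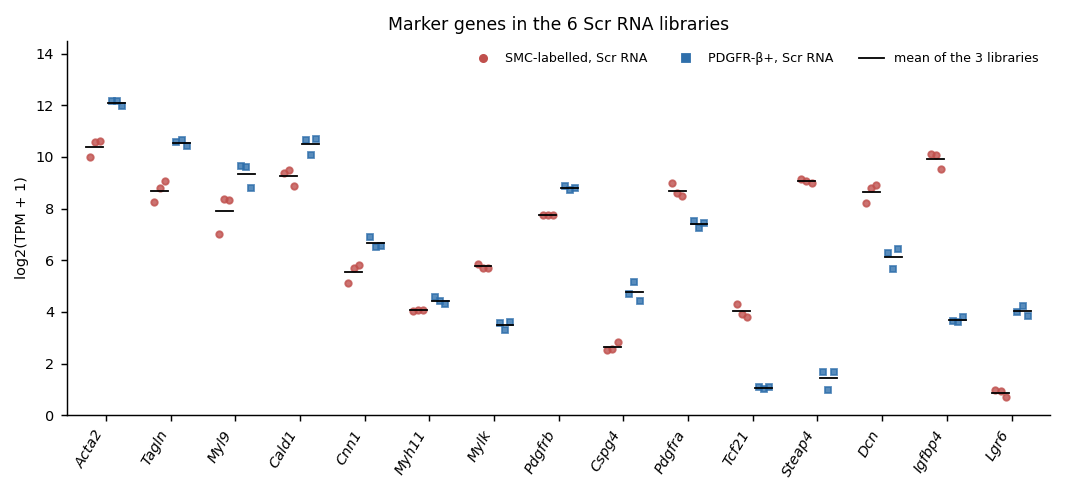
Level of 15 marker genes in each library on the log2(TPM + 1) scale, with red circles for the SMC-labelled libraries, blue squares for the PDGFR-β+ libraries and a black line at the mean of the 3 log2 values. Acta2, Tagln, Myl9, Cald1, Cnn1 and Lgr6 sit higher in the PDGFR-β+ libraries, and Mylk, Pdgfra, Tcf21, Steap4, Dcn and Igfbp4 higher in the SMC-labelled libraries.

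Of 26 contractile genes, 20 were tested, and 7 were called higher in the PDGFR-β+ libraries against 1 in the SMC-labelled libraries. Over all genes tested the shares called were 5.48% and 8.71%, and the counts of every list below are to be read beside them. The median log2 difference of the 20 was -0.67. Tagln, which encodes the actin-binding protein transgelin, had the largest difference among those higher in the PDGFR-β+ libraries, with 301, 443 and 532 TPM in SMC-labelled and 1535, 1623 and 1356 TPM in PDGFR-β+ libraries (log2 difference -1.86, SE 0.20, adjusted p = 0.000205). The myosin light chain gene Myl9 was at 128, 327 and 324 TPM against 797, 790.2 and 441 TPM. Myl9 missed the threshold without PDGFR-β+ library 1 (log2 difference -1.30, adjusted p = 0.0581) or without PDGFR-β+ library 2 (-1.31, adjusted p = 0.0587). Its SMC-labelled library without a number was the lowest of the 6, and the groups did not overlap. The other genes called in this direction were Cnn1 (calponin), Cald1 (caldesmon), Csrp1 and Synpo2, with log2 differences between -1.24 and -1.09. The log2 difference of Cnn1 was -0.97 without PDGFR-β+ library 1 and -0.88 without the SMC-labelled library that has no number, and that of Synpo2 was -0.99 without SMC-labelled library 2, all short of 2-fold. The exception was Mylk, the kinase that phosphorylates myosin light chain to start contraction, at 57.4, 51.5 and 51.5 TPM in SMC-labelled and 11.0, 8.89 and 11.1 TPM in PDGFR-β+ libraries (log2 difference 2.27, SE 0.11, adjusted p = 5.08e-06). Smtn (smoothelin), a marker of mature contractile cells, lay at 53.4 to 70.7 TPM with overlapping groups. Myocd, the gene of myocardin, did not exceed 0.213 TPM in the SMC-labelled and 0.0457 TPM in the PDGFR-β+ libraries, Kcnmb1, a channel subunit of mature smooth muscle, did not exceed 0.133 TPM, and Pln was listed at 0 in all 6.

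The upstream sequences of Acta2 and Myl9 are shown because both genes were called and both carry matches to the CArG box. They are the 250 bases before the RefSeq start on GRCm38.p6, from 5′ to 3′ on the strand of the gene, with each match in capitals. Acta2 is from chr19:34255374-34255623 (minus strand) and Myl9 from chr2:156775214-156775463 (plus strand).
Acta2: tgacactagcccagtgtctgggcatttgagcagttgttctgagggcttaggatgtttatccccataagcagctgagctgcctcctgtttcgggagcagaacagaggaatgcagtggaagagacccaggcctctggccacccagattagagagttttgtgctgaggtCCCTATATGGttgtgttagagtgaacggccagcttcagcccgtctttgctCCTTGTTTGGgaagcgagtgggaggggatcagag
Myl9: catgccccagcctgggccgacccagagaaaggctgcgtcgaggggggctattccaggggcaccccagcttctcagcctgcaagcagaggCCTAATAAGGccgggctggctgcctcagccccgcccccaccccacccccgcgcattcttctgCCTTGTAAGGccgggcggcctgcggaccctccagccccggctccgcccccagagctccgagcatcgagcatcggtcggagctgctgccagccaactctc
A match was CC, then 6 bases of which at least 5 were A or T, then GG, a pattern that reads the same on both strands. The matches in Acta2 began 84 and 34 bases before the start and those in Myl9 161 and 99 bases before it. Of the 32851 mouse promoters in the RefSeq table, 8.59% held such a match in the same window. Of the 26 contractile genes, 21 had a promoter in the table, and 7 of their 26 promoters (26.9%) held a match. These 7 belong to 6 genes, since the same Ldb3 match lay in overlapping promoters and was counted in each. Besides Acta2 and Myl9 the genes were Hspb6 and Ldb3, which were not called, and Actc1 and Pdlim3, which did not pass the filter. Among the 7 contractile genes called higher in the PDGFR-β+ libraries, 6 were in the table and Acta2 and Myl9 held a match. These matches describe letters only and were not tested for binding.

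Receptors through which airway smooth muscle is made to contract or relax differed in both directions. Of 26, 16 were tested, 5 were called higher in the SMC-labelled and 3 in the PDGFR-β+ libraries, with a median log2 difference of 0.01. Higher in the SMC-labelled libraries were the angiotensin receptors Agtr1a and Agtr1b, the prostaglandin receptors Ptger1 and Ptger3 and the bradykinin receptor Bdkrb1, which stood at 11.9, 16.0 and 12.7 TPM against 2.48, 2.31 and 1.60 TPM. Without the SMC-labelled library that has no number, Ptger1 had a log2 difference of 0.86. Higher in the PDGFR-β+ libraries were the endothelin receptor Ednrb, at 16.1, 13.2 and 18.1 TPM against 3.53, 2.79 and 2.50 TPM, the α-adrenergic receptor Adra1d and F2r, the receptor for thrombin. The muscarinic receptors that answer the vagus nerve were scarce. Chrm3 lay at 0.751, 0.901 and 0.789 TPM and 1.76, 1.83 and 1.45 TPM, and Chrm2 did not exceed 0.186 TPM.

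Genes of pericytes and other mural cells were also split. Of 18 genes, 16 were found by symbol and 10 were tested, with 4 called higher in the SMC-labelled and 2 in the PDGFR-β+ libraries (Pdgfrb and Cspg4). Cspg4, which encodes the proteoglycan NG2 of pericytes, was at 24.9, 35.1 and 20.6 TPM in PDGFR-β+ and 4.81, 4.97 and 6.09 TPM in SMC-labelled libraries (log2 difference -2.12, SE 0.19, adjusted p = 9.87e-05). Steap4, a metalloreductase that is used as a pericyte marker, was the largest difference of the list, at 558, 529 and 511 TPM against 2.17, 0.965 and 2.15 TPM. Anpep, Cox4i2 and Notch3 were called in the same direction as Steap4, with log2 differences of 3.20, 1.99 and 1.06. Rgs5, often taken as the defining pericyte gene, was at 0.828, 1.46 and 1.40 TPM and 1.74, 2.84 and 2.22 TPM, and Higd1b was listed at 0 in all 6 libraries.

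Fibroblast markers were called in both directions. Of 20 adventitial fibroblast genes 18 were tested, and 11 were called higher in the SMC-labelled libraries against 1 in the PDGFR-β+ libraries, with a median log2 difference of 1.45 beside 0.01 over all genes. Igfbp4, which binds insulin-like growth factors, stood at 1108, 1075 and 747 TPM in SMC-labelled and 11.6, 11.1 and 13.1 TPM in PDGFR-β+ libraries. Scara5, a ferritin receptor, was at 145, 81.8 and 62.7 TPM against 1.37, 0.512 and 1.03 TPM, and Dpt (dermatopontin) at 89.7, 82.5 and 72.6 TPM against 6.53, 4.23 and 7.24 TPM. The small proteoglycans Dcn (decorin) and Lum (lumican), the alarmin Il33 and the stem cell antigen genes Ly6a and Ly6c1 were called in the same direction, with log2 differences between 1.73 and 3.56. Cd34, a sialomucin of adventitial fibroblasts and vessels, was the exception, at 102, 139 and 91.0 TPM in PDGFR-β+ and 31.9, 22.7 and 18.3 TPM in SMC-labelled libraries. Pi16, the defining gene of the adventitial list, did not exceed 0.660 TPM in the SMC-labelled or 0.368 TPM in the PDGFR-β+ libraries.

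Of 16 alveolar fibroblast genes 9 were tested and 5 were called, all higher in the SMC-labelled libraries, namely Tcf21, Limch1, Npnt, Inmt and Mfap4. Their log2 differences ran from 1.13 to 2.95. Inmt and Mfap4 each stood at a log2 difference of 0.97 without PDGFR-β+ library 2, and Mfap4 at 0.98 and 0.96 without SMC-labelled library 2 or 3. Several other genes of that list, among them Plin2 and Pparg of lipid-storing fibroblasts and the growth factor gene Fgf10, were not called. Of the short list of peribronchial fibroblast genes, 3 of 5 tested members were called higher in the PDGFR-β+ libraries, while Aspn and Fgf18, with log2 differences of 0.53 and 0.29, were not called. Lgr6, a receptor for R-spondins that marks peribronchial cells, was at 14.9, 17.7 and 13.2 TPM in PDGFR-β+ and 0.960, 0.909 and 0.635 TPM in SMC-labelled libraries (log2 difference -3.15, SE 0.15, adjusted p = 4.94e-06). The others were Dpysl3 and Mustn1, with log2 differences of -1.98 and -1.63. Hhip and Gli1, which respond to hedgehog signals around the airway, stayed under 1 TPM in every library.

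**Figure D2:**
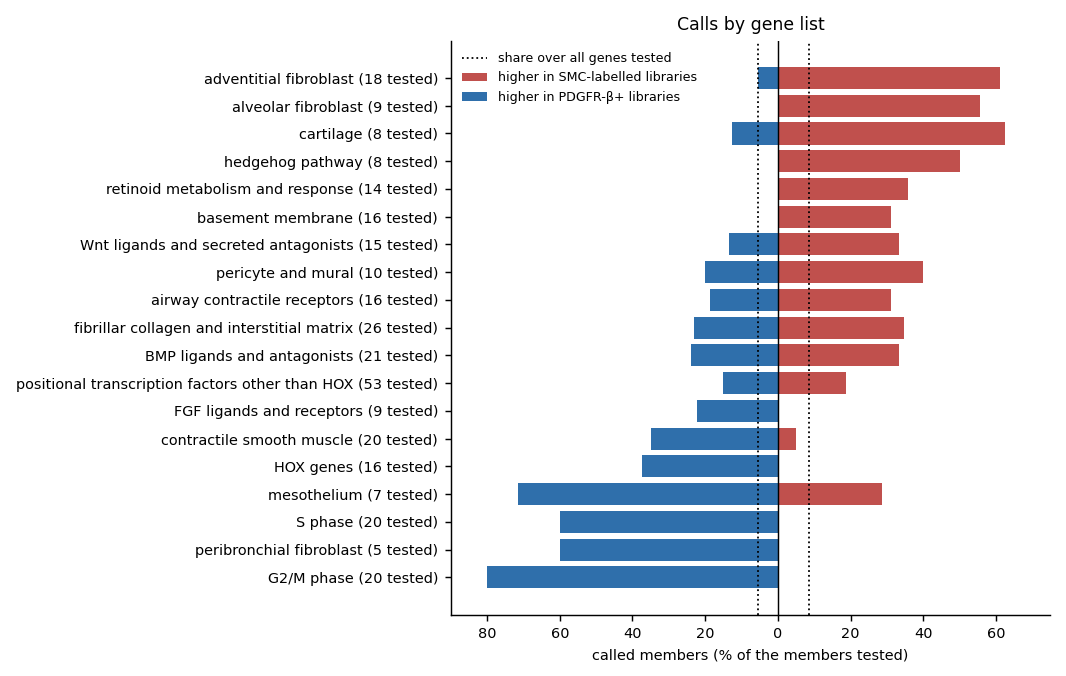
Called members of each list with at least 5 tested members, as a percent of the members tested, to the right (red) where higher in the SMC-labelled and to the left (blue) where higher in the PDGFR-β+ libraries. Dotted lines mark the shares over all genes tested, 8.71% and 5.48%, and the G2/M phase list, with 16 of 20, has the longest bar.

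Markers of cell types outside the mesenchyme were low in both groups, with a few exceptions in single genes. The summed level of 12 leukocyte genes was 46.1 to 50.5 TPM in the SMC-labelled and 36.3 to 37.7 TPM in the PDGFR-β+ libraries, Ptprc (CD45) did not exceed 0.257 TPM and Tyrobp was listed at 0. Of 4 leukocyte genes tested 3 were called. Cd14, a receptor for bacterial lipopolysaccharide, was at 42.3, 40.8 and 39.8 TPM in the SMC-labelled and 6.63, 6.96 and 7.04 TPM in the PDGFR-β+ libraries, and Lyz2 (lysozyme) and Cd68 were higher in the PDGFR-β+ libraries, with log2 differences of -2.74 and -1.03. Cd68 fell short of 2-fold without PDGFR-β+ library 2 (-0.99) or 3 (-0.94) or SMC-labelled library 2 (-0.87) or 3 (-0.97). Of 12 endothelial genes the sum was 19.3 to 20.6 TPM and 21.6 to 25.3 TPM, with Cdh5 and Pecam1 under 1 TPM throughout, while the receptor gene Kdr was at 15.2, 17.1 and 13.7 TPM in the PDGFR-β+ and 0.798, 0.502 and 0.687 TPM in the SMC-labelled libraries. Flt1, another receptor for vascular endothelial growth factor, was called the other way, at 2.58, 3.41 and 3.07 TPM in the PDGFR-β+ and 10.4, 11.2 and 10.5 TPM in the SMC-labelled libraries. The 13 epithelial genes summed to 4.30 to 4.67 TPM and 21.8 to 38.8 TPM. Almost all of the latter was the keratin gene Krt19, at 29.3, 38.4 and 21.6 TPM, and Sftpc was listed at 0 in all libraries. Genes of the mesothelium, the sheet of cells over the lung, were called in all 7 tested cases, 5 of them higher in the PDGFR-β+ libraries (Upk1b, Gpm6a, Upk3b, Lrrn4 and Bnc1) and Msln and Rspo1 higher in the SMC-labelled libraries. Their sums were 34.1 to 51.0 TPM and 60.1 to 65.4 TPM. Without the SMC-labelled library that has no number, the log2 difference of Msln was 0.92.

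Cartilage genes, tested because the trachea is ringed by cartilage, were higher in the SMC-labelled libraries in 5 of 8 tested cases and lower in 1. Comp, a cartilage and tendon matrix protein, was at 76.8, 62.9 and 48.9 TPM against 0.190, 0.579 and 0.290 TPM and the chondrocyte regulator Sox9 at 62.0, 54.2 and 50.5 TPM against 13.7, 17.9 and 14.0 TPM. Col2a1, the main collagen of cartilage, was at 12.5, 9.86 and 9.25 TPM and 0, 0 and 0.0422 TPM, and Acan (aggrecan) stayed under 1 TPM in all libraries. The 15 genes summed to 361 to 411 TPM and 89.4 to 101 TPM. The 14 striated muscle genes summed to 13.8 to 18.6 TPM and 9.87 to 12.9 TPM and the 8 glial genes to 7.38 to 10.8 TPM and 6.99 to 9.21 TPM. Whether cells of any of these types contributed to the differences was not tested.

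With clone and model names left out, the largest differences belonged to acute-phase and defence genes. In the SMC-labelled libraries, Lcn2, an iron-sequestering protein of innate defence, stood at 1753, 2296 and 2503 TPM against 0.228, 0 and 0.550 TPM (log2 difference 10.77, SE 0.19, adjusted p = 1.02e-07). Saa3, a serum amyloid, was at 776, 2206 and 2622 TPM and listed at 0 in all 3 PDGFR-β+ libraries. The SMC-labelled library without a number was the lowest of the group for both. Hp (haptoglobin) followed at 539.7, 399 and 342 TPM against 0.103, 0.0722 and 0.0801 TPM, and the serine protease inhibitor Serpina3n, one of the most abundant transcripts of these cells, at 12474, 10379 and 9128 TPM against 172, 111 and 183 TPM. Serpina3n and Serpina3m belong to a cluster of similar genes whose reads can be hard to assign. C3, the central component of complement, was at 2444, 1988 and 1821 TPM against 50.4, 27.9 and 50.9 TPM. Others among the 15 largest differences in this direction were Serpina3m, Steap4, Cxcl5, Igfbp4, Cp, Zbtb16, Adamts15, Aspg and Clu, with log2 differences from 5.68 to 7.70. Cxcl5 attracts neutrophils, Cp (ceruloplasmin) carries copper, and Clu (clusterin) is a secreted chaperone. Zbtb16, a transcription factor that responds to glucocorticoids, was at 79.7, 64.1 and 60.1 TPM against 0.0451, 0 and 0.0211 TPM.

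The 15 largest differences in the other direction were smaller. C1qtnf3, which encodes a secreted protein of the C1q and TNF family, was at 63.5, 68.4 and 72.6 TPM in the PDGFR-β+ and 0.233, 0.186 and 0.143 TPM in the SMC-labelled libraries (log2 difference -5.86, SE 0.11, adjusted p = 1.11e-07). Hes1, a repressor switched on by Notch, was at 42.5, 56.4 and 39.2 TPM against 0.783, 1.52 and 1.83 TPM. Matrix genes linked to activated fibroblasts were among the 15. Postn (periostin) was at 482, 348 and 549 TPM against 60.4, 34.2 and 28.1 TPM, Cthrc1 at 228, 151 and 268 TPM against 20.1, 18.5 and 17.9 TPM, and Timp3, an inhibitor of metalloproteinases, at 1725, 1453 and 1767 TPM against 102, 143 and 156 TPM. None of these groups overlapped. The others were Hsd3b6, Serpinb9b, Pkhd1l1, Upk1b, Kprp, Tnfsf15, Fabp7, Esm1, Stmn2 and Lce1g, with log2 differences from -3.42 to -4.41. Kprp and Lce1g belong to the cornified envelope genes of the epidermis.

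The most abundant nuclear genes were partly shared. In the SMC-labelled libraries they were Fth1, Gm42418, Mgp, Serpina3n and Gm23935, and in the PDGFR-β+ libraries Gm42418, Gm23935, Eef1a1, Fn1 and S100a4. Gm42418 and Gm23935 both rose in the order of the libraries in both groups. Gm42418 was at 18001, 25541 and 32323 TPM and 34778, 49579 and 63263 TPM. Gm23935 was at 5999, 9924.5 and 14561 TPM and 19881, 23837 and 31755 TPM. The part of these transcripts in the values of other genes was not tested. Fth1, the heavy chain of ferritin, was at 27349, 27429 and 25424 TPM against 5219, 5339 and 5214 TPM, and S100a4, a calcium-binding protein of migrating fibroblasts, at 1606, 1294 and 1238 TPM against 6066, 6576 and 5860 TPM. The translation factor Eef1a1 lay at 8344, 7201 and 6844 TPM and 7128, 7364 and 7176 TPM with overlapping groups.

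Interstitial matrix genes were called in both directions. Of 27, 26 were tested, 9 were higher in the SMC-labelled and 6 in the PDGFR-β+ libraries, with a median log2 difference of -0.28. Spp1 (osteopontin) was at 5026, 4832 and 4773 TPM in SMC-labelled and 374, 422 and 389 TPM in PDGFR-β+ libraries (log2 difference 3.62, SE 0.082, adjusted p = 2e-07), and Mgp, which keeps matrix from calcifying, at 10725, 11589 and 10805 TPM against 2589, 1761 and 2823 TPM. The collagen genes Col3a1, Col6a1 and Col6a2 were on the same side, with log2 differences of 1.20, 1.25 and 1.63, together with Tnc, Vcan, the fibrillin gene Fbn2 and the fibulin gene Fbln1. The third collagen VI gene of the list, Col6a3, was not called and had a log2 difference of -0.74. Without PDGFR-β+ library 2, Col3a1 was at 0.96. Genes of elastic fibres were split. Eln (elastin) was at 13.6, 14.8 and 14.1 TPM in PDGFR-β+ and 6.38, 6.21 and 5.90 TPM in SMC-labelled libraries, and Fbln5 and Fbln2, other fibulins, were on the side of Eln with log2 differences of -1.61 and -1.43. Thbs2, Postn and Col5a1 were also called higher in the PDGFR-β+ libraries. The main fibrillar collagen gene Col1a1 was 2103, 1783 and 1925 TPM in PDGFR-β+ and 899, 1196 and 1230 TPM in SMC-labelled libraries, which stayed under 2-fold (log2 difference -0.82, adjusted p = 0.00197). Of 21 basement membrane genes 16 were tested and 5 were called, all higher in the SMC-labelled libraries (Nid2, Col18a1, Lama5, Agrn and Lamb1). The collagen IV genes Col4a1 and Col4a2 were not called.

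Among HOX genes the cell types differed most from Hoxb5 to Hoxb9. Of 39 HOX genes 16 passed the filter, and 6 were called, all higher in the PDGFR-β+ libraries, where the share over all genes tested was 5.48%. Of the 6, Hoxb9 and Hoxc6 had SMC-labelled means of 0.424 and 0.245 TPM and passed the filter only through the PDGFR-β+ libraries. The genes Hoxa2 to Hoxa5 and Hoxb2 to Hoxb4 were present in both cell types and differed by less than 2-fold. From Hoxb5 onwards the Hoxb genes were higher in the PDGFR-β+ libraries, with log2 differences of -1.25 for Hoxb5, -1.34 for Hoxb6, -1.44 for Hoxb7 and -1.42 for Hoxb8. Hoxb9 (mm10 chr11:96271457-96276595), the next gene of the cluster, was at 12.7, 11.4 and 11.0 TPM in the PDGFR-β+ and 0.224, 0.419 and 0.630 TPM in the SMC-labelled libraries (log2 difference -3.16, SE 0.15, adjusted p = 5.08e-06). No group of these 5 genes overlapped. Hoxb13, which lies beyond Hoxb9, stayed under 1 TPM in every library.

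The Hoxa cluster did not follow the same course. Hoxa6, at 3.82, 3.47 and 3.76 TPM and 1.85, 1.99 and 0.593 TPM, and Hoxa7, at 13.4, 12.4 and 10.9 TPM and 7.08, 8.28 and 8.46 TPM, were higher in the SMC-labelled libraries by less than 2-fold, with log2 differences of 0.97 and 0.56 and adjusted p = 0.0138 and 0.00675. Hoxa4 and Hoxa5 were slightly higher in the PDGFR-β+ libraries, with log2 differences of -0.83 and -0.43, Hoxa5 being the most abundant HOX gene of both cell types at 56.2 to 85.3 TPM. Hoxa2 and Hoxa3 had log2 differences of 0.38 and -0.47, and Hoxb2, Hoxb3 and Hoxb4 of -0.16, -0.11 and 0.07. Hoxa9 and the genes beyond it were under 1 TPM throughout. Of the Hoxc genes only Hoxc6 passed the filter, at 1.51, 1.87 and 2.34 TPM in PDGFR-β+ and 0.175, 0.172 and 0.388 TPM in SMC-labelled libraries, and it was the sixth gene called. No Hoxd gene passed it, although Hoxd8 was at 1.24, 1.76 and 1.22 TPM in the SMC-labelled and 0.0700, 0.0737 and 0.0409 TPM in the PDGFR-β+ libraries. HOX genes of a cluster overlap each other and their antisense transcripts. The paper describes the libraries as strand-specific. Whether strand was used in counting is not given in the sources used here, so values of neighbours may share reads.

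**Figure D3:**
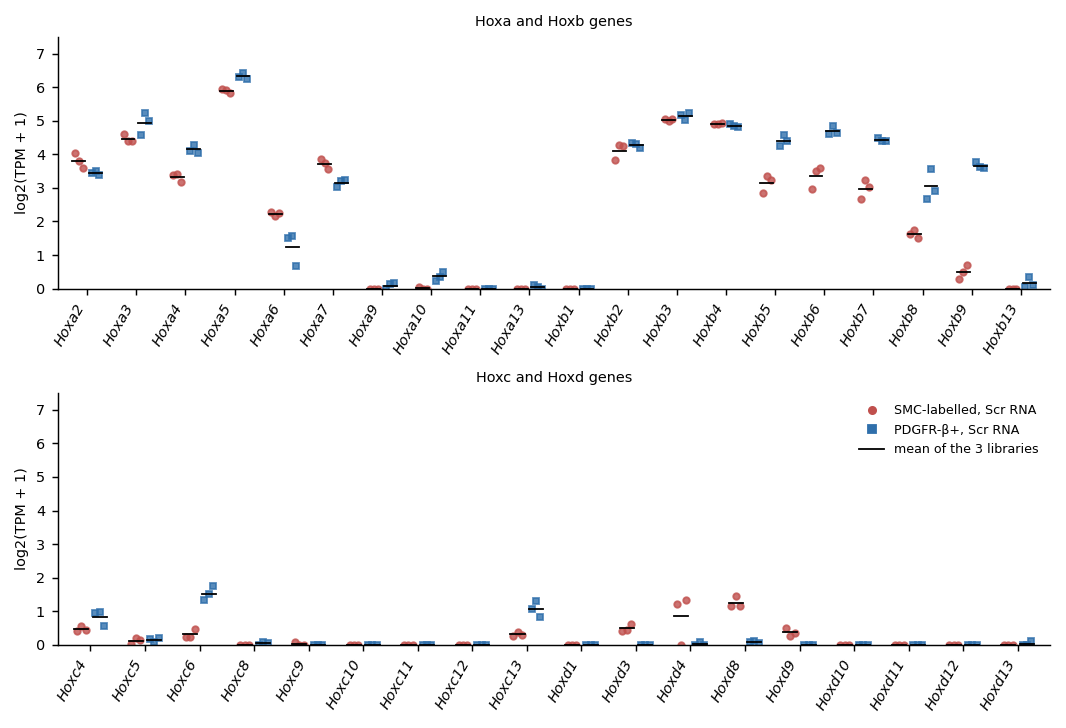
Level of HOX genes in each library on the log2(TPM + 1) scale, in the order of the genes along each cluster, with red circles for SMC-labelled and blue squares for PDGFR-β+ libraries and a line at the mean of the 3 log2 values. For the Hoxb genes the groups lie close together up to Hoxb4 and apart from Hoxb5 to Hoxb9.

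Other transcription factors that mark position differed in both directions. Of 71, 53 were tested, 10 were called higher in the SMC-labelled and 8 in the PDGFR-β+ libraries, with a median log2 difference of 0.22. The shares over all genes tested were 8.71% and 5.48%. The T-box genes Tbx2 and Tbx4, which pattern the mesenchyme of the trachea and lung, were both higher in the SMC-labelled libraries. Tbx4 was at 49.3, 55.6 and 55.1 TPM against 6.50, 5.35 and 4.50 TPM (log2 difference 3.08, SE 0.13, adjusted p = 3.09e-06) and Tbx2 at 16.2, 19.3 and 18.5 TPM against 1.35, 1.04 and 1.27 TPM. Their relative Tbx5, which acts with Tbx4 in the same tissue, did not differ beyond the spread between libraries, at 25.2, 23.2 and 23.0 TPM and 20.3, 23.2 and 23.7 TPM. The odd-skipped genes Osr1, at 365, 344 and 318 TPM against 79.4, 133 and 77.7 TPM, and Osr2, at 28.6, 23.2 and 18.6 TPM against 1.66, 0.977 and 0.743 TPM, were on the side of Tbx4. So was the homeobox gene En1, at 25.6, 29.6 and 33.3 TPM against 3.16, 2.61 and 2.89 TPM. Nkx6-1, Hand2, Foxc1, Isl1 and Pax9 were called in the same direction, with log2 differences from 1.23 to 1.56.

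Higher in the PDGFR-β+ libraries were the LIM-homeobox genes Lhx9 and Lhx8. Lhx9 was at 11.5, 11.4 and 12.5 TPM against 0.257, 0.282 and 0.675 TPM (log2 difference -3.20, SE 0.16, adjusted p = 5.22e-06) and Lhx8 at 34.3, 27.3 and 33.7 TPM against 8.22, 8.28 and 8.70 TPM. Emx2, known from the brain and the urogenital ridge, was at 29.4, 30.3 and 31.4 TPM against 7.67, 7.83 and 7.77 TPM. Pax3, a factor of neural crest and muscle precursors, was at 4.85, 5.58 and 4.59 TPM and listed at 0 in all 3 SMC-labelled libraries. Tbx20, Gata4 and Msx2 were called in the same direction, with log2 differences from -1.01 to -1.40. Msx2 fell short of 2-fold without PDGFR-β+ library 2 (-0.84) or the SMC-labelled library that has no number (-0.93). Factors shared by lung mesenchyme as a whole were present in both cell types. Foxf1, which the embryonic lung mesenchyme needs, was at 56.5, 59.5 and 59.2 TPM and 44.5, 47.9 and 44.2 TPM, and the limb and lung factors Prrx1, Prrx2 and Tbx15 and the gut factor Barx1 were not called.

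**Figure D4:**
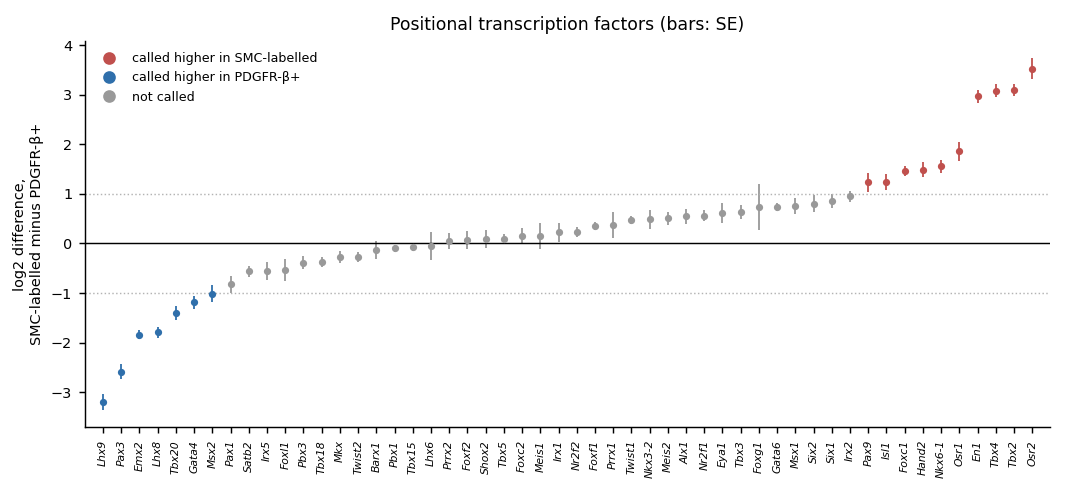
Log2 difference of tested positional transcription factors other than HOX, SMC-labelled minus PDGFR-β+, with bars for the SE and dotted lines at a 2-fold difference. Osr2, Tbx2, Tbx4 and En1 stand at the right end and Lhx9, Pax3, Emx2 and Lhx8 at the left end.

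Among signalling genes that act over short distances, 3 co-receptors and a transcription factor of the hedgehog pathway were higher in the SMC-labelled libraries. Of 13, 8 were tested and 4 were called, namely the co-receptors Gas1, Cdon and Boc and the transcription factor Gli2, with a median of 0.99 over the 8. Gas1 was at 127, 98.5 and 82.1 TPM against 21.8, 12.6 and 24.6 TPM. Of the ligands, Shh was listed at 0 in all 6 libraries, and the targets Gli1 and Hhip were under 1 TPM. Ptch1, both receptor and target, was at 9.82, 9.69 and 8.31 TPM and 6.04, 6.84 and 6.05 TPM and was not called.

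Wnt ligands and secreted antagonists were called in both directions. Of 32 genes 15 were tested, with 5 called higher in the SMC-labelled and 2 in the PDGFR-β+ libraries. Sfrp1, which binds Wnt proteins outside the cell, was at 1869, 1665 and 1580 TPM in SMC-labelled and 167, 84.1 and 174 TPM in PDGFR-β+ libraries (log2 difference 3.65, SE 0.26, adjusted p = 3.21e-05), and its relative Sfrp2 at 35.8, 32.9 and 29.8 TPM against 0.207, 0.315 and 0.215 TPM. Rspo1, an enhancer of Wnt signalling, and the ligands Wnt11 and Wnt16 were on the same side. In the PDGFR-β+ libraries the antagonist Dkk2 was at 21.2, 18.2 and 22.0 TPM against 1.15, 1.32 and 1.20 TPM, and the ligand Wnt5a at a mean of 29.5 ± 11.2 TPM against 12.4 ± 2.42 TPM (SD, n = 3). Without PDGFR-β+ library 3, Wnt5a had a log2 difference of -0.86.

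In the BMP family ligands and antagonists were both called in both directions. Of 25 genes 21 were tested, 7 were called higher in the SMC-labelled and 5 in the PDGFR-β+ libraries. Bmp3, Bmp5, Bmp2, Bmp4, Gdf10, Inhbb and the antagonist Chrd were higher in the SMC-labelled libraries. Bmp4 was at 31.1, 31.5 and 32.0 TPM against 12.7, 13.1 and 14.4 TPM. Grem1 (gremlin), a BMP antagonist of fibrotic lung, was at 2153, 1833 and 2190 TPM in the PDGFR-β+ and 185, 272 and 292 TPM in the SMC-labelled libraries (log2 difference -3.06, SE 0.17, adjusted p = 1.04e-05). The other genes on this side were Gdf6, Inhba, Nog and the BMP target Id1, which had a log2 difference of -1.22, while the related targets Id2, Id3 and Id4 were not called. Without PDGFR-β+ library 2, Nog was at -0.86.

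Retinoid genes were called on 1 side only. Of 16, 14 were tested and 5 were higher in the SMC-labelled libraries, none in the PDGFR-β+ libraries. Aldh1a1, which makes retinoic acid, was at 2700, 2024 and 1908 TPM against 233, 190.2 and 245 TPM (log2 difference 3.30, SE 0.15, adjusted p = 4.34e-06). Cyp26b1, which degrades retinoic acid, was at 36.7, 32.5 and 32.4 TPM against 4.63, 10.0 and 5.28 TPM, and the binding proteins Rbp4 and Crabp1 were called with log2 differences of 2.27 and 2.57. Aldh1a2 and the receptors Rara, Rarb and Rarg were not called. Of 15 FGF genes 9 were tested, and Fgf2 and the feedback inhibitor Spry1 were called, both higher in the PDGFR-β+ libraries. Fgf2 was at 62.8, 269 and 59.7 TPM against 23.6, 27.0 and 36.7 TPM, and PDGFR-β+ library 2 was far above the others. Without that library its log2 difference was -1.07 in place of -1.78, and without the SMC-labelled library that has no number or number 2, in the fit over 12 libraries or with no filter on low values, its adjusted p was between 0.061 and 0.0851. Spry1 had log2 differences of -0.93, -0.94 and -0.99 without PDGFR-β+ library 1, the SMC-labelled library that has no number and SMC-labelled library 2.

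Genes of the cell cycle moved with cell type. All 20 S phase and all 20 G2/M phase genes tested were lower in the SMC-labelled libraries at an adjusted p under 0.05, and 12 and 16 of them passed 2-fold, with medians of -1.22 and -1.30. Over all 13317 genes tested, 3098 were lower there at this threshold with any size of difference, and 730 (5.48%) passed 2-fold. Mki67, which marks dividing cells, was at 11.6, 11.7 and 12.5 TPM in SMC-labelled and 44.8, 55.0 and 37.7 TPM in PDGFR-β+ libraries (log2 difference -1.84, SE 0.14, adjusted p = 4.14e-05). The replication licensing genes Mcm2, Mcm3 and Mcm5 had log2 differences of -1.43, -1.67 and -1.82. The groups did not overlap for any of these 4 genes. The part that dividing cells had in the other differences was not tested.

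The siKlf4 libraries of the same cells, which share no library with the comparison above, gave another contrast of the cell types. Of 1774 genes called in Scr libraries and tested in both, 874 (49.3%) were called in the same direction with siKlf4, which is 55.7% of the 1570 called there. By the interaction term over the 12 libraries, the difference between the cell types itself differed between treatments, at an adjusted p under 0.05, for 916 of the 1774. These genes were picked for a large difference in the Scr libraries, which also enter this term, so the choice can raise the count. The share over all genes tested in both is not given here. All 6 called HOX genes were called again, with Hoxb9 at a log2 difference of -3.46 and Hoxb5 at -1.12. Of the 18 positional factors 10 were called again, a share near the 49.3% over all genes called with Scr RNA. Among the 10 were Tbx4 at 2.73, Tbx2 at 2.61, En1 at 2.42, Lhx9 at -3.67 and Emx2 at -1.79. Foxc1, Gata4, Hand2, Isl1, Msx2, Nkx6-1, Osr1 and Pax9 were not called with siKlf4. Osr1 and Osr2 had smaller differences with siKlf4, 0.53 and 1.08, and adjusted p = 0.0178 and 0.000148 for the change.

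Most contractile genes and all G2/M phase genes called with Scr RNA were not called with siKlf4. Of the 8 contractile genes called with Scr RNA, 2 were called with siKlf4 (Mylk and Synpo2). Acta2 was at a mean of 2739 TPM in SMC-labelled and 3572 TPM in PDGFR-β+ libraries with siKlf4, a log2 difference of -0.39 in place of -1.69 (adjusted p = 0.000633 for the change). Tagln went from -1.86 to -0.51 and Cnn1 from -1.10 to 0.11 (adjusted p = 0.0013 and 0.00406 for the change). None of the 16 G2/M phase genes called with Scr RNA was called with siKlf4 by limma, and Mki67 went from -1.84 to -0.03 (adjusted p = 3.88e-05 for the change). Of the 12 S phase genes called with Scr RNA, 2 were called again, Mcm2 at -1.28 and Mcm3 at -1.41 (adjusted p = 0.57 and 0.287 for the change), and 4 others, Mcm4, Mcm6, Pcna and Slbp, were called only with siKlf4, with log2 differences from -1.36 to -1.03. For Slbp the change passed the threshold (adjusted p = 0.0335), for the other 3 it did not. Lcn2, Saa3 and C3 kept log2 differences of 10.38, 10.07 and 6.35, and for none of these 3 did the change pass the threshold. Hp went from 8.60 to 6.38 and Serpina3m from 7.70 to 5.42, and for both the change passed it (adjusted p = 2.16e-05 and 0.000598).

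**Figure D5:**
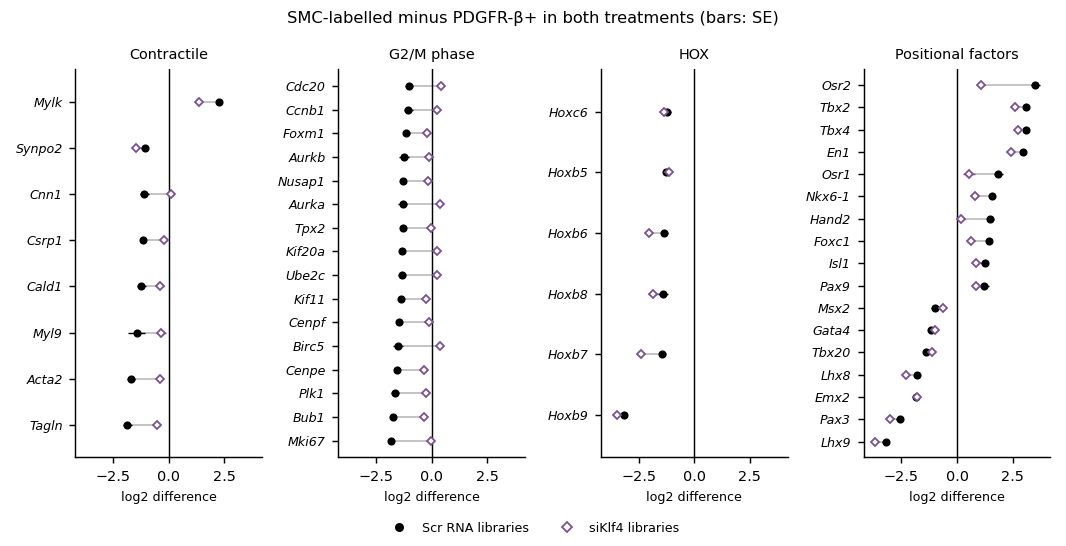
Log2 difference of the cell types, SMC-labelled minus PDGFR-β+, in the Scr RNA libraries (black circles) and in the siKlf4 libraries (open diamonds), for genes of 4 lists that were called in the Scr libraries, with bars for the SE. HOX genes lie at similar or larger differences in both treatments, while the 16 G2/M phase genes lie near 0 with siKlf4.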

How the data were processed

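RNA was sequenced in bulk from cultured cells of 2 kinds given Scrambled or Klf4 siRNA, 12 libraries in all. The deposited values are TPM, transcript levels scaled by gene length and by library total, which the authors made per library, without pooling replicates. The submitters' processing notes name HISAT2, StringTie and the mm10 genome. TPM keeps no depth, so counting error is unknown. Per the paper's methods the authors tested counts with DESeq2. Counts were not used here, so TPM was tested on a log scale.

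The 6 Scr libraries were compared and the 6 siKlf4 libraries were kept for a separate contrast. The 2 tables were joined by gene. Genes averaging 1 TPM or more across these libraries and with a position in GENCODE release M21, outside chromosomes X and Y, were tested with limma 3.58.1 in R 4.3.3 on log2(TPM + 1), two-sided, with eBayes trend and Benjamini-Hochberg adjustment over 13317 genes. A call required an adjusted p under 0.05 and a log2 difference of at least 1. Fold changes on this scale understate those of low genes. The scripts were tested on simulated data. No column of per-sample values was left unused for lack of a mapped sample, and no value was set against the authors' own comparisons. A few genes that the rule would name are not reported here.

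The members and gene lists were chosen with earlier results of these data known. Named genes were the markers, the members of a discussed list (called genes with the largest difference first, defining members always, every tested HOX gene), the 15 called genes with the largest difference and no overlap in each direction, leaving out clone and model names, and the 5 most abundant nuclear genes per cell type. Alternatives were the pseudocount, the filter, scaling, the variance trend, the samples and genes in the fit, the call rule, a replicate block and leaving out each library. Python 3.11.15, pandas 2.3.3 and matplotlib 3.10.9 were used for lists and plots.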

Additional observations from a re-analysis of the deposited data

Results flagged for a closer look

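For 33 genes the cell types differed in opposite directions in the Scr and the siKlf4 libraries, each difference called in its own contrast. The change passed an adjusted p of 0.05 in the interaction term of limma over 12 libraries for all 33. A large change follows from how these genes were picked, and the term uses the same libraries, so it adds little. Of the 33 genes, 27 were higher in the SMC-labelled libraries with Scr RNA and 6 higher in the PDGFR-β+ libraries. The following were named after their values were seen. Inhba, which encodes a subunit of activin, had means of 62.5 TPM in SMC-labelled and 154 TPM in PDGFR-β+ libraries with Scr RNA and of 153 and 61.0 TPM with siKlf4. Its log2 difference was -1.29 with Scr RNA and 1.30 with siKlf4, a change of -2.60 (SE 0.15, adjusted p = 1.61e-06). Hmga2, an architectural chromatin factor, moved the same way, from -1.14 to 1.41. The interferon-stimulated genes Isg15, Irf7 and Usp18 moved the other way. With Scr RNA the groups of Isg15 and Irf7 overlapped, and both lost the call in 4 of the 6 fits that left out 1 library. Isg15 was at means of 49.0 and 20.6 TPM with Scr RNA and of 230.2 and 734 TPM with siKlf4, Irf7 went from a log2 difference of 1.44 to -1.77 and Usp18 from 1.42 to -1.76.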

How the results depend on the processing

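The counts of 1160 genes higher in the SMC-labelled and 730 higher in the PDGFR-β+ libraries stayed within 1.5 times under every alternative that kept the 2-fold limit. With any size of difference they were 3268 and 3098, as the construction of that alternative implies. Leaving out 1 library gave 1152 to 1221 and 675 to 786. Quantile normalization gave 1025 and 884, so the share higher in the SMC-labelled libraries was 53.7% in place of 61.4%. The correlation of the deviations of same-numbered libraries was 0.0042, a single contrast between numbers 2 and 3, and a pairing by number was not shown. In all 4 groups of the study the share of the 10 most abundant genes was higher in number 3 than in number 2. The fit with the replicate block, over the 4 libraries numbered 2 and 3, called 1207 and 692, and the same libraries without the block, an alternative chosen after seeing the data, 1189 and 677.

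Of 165 named genes called, 19 lost the call under at least 1 alternative within the Scr libraries, 17 of them when 1 library was left out. No called gene changed sign within these alternatives, and 24 named genes that were not called changed sign in at least 1 alternative, siKlf4 included. The cause was not tested. Isg15 and Irf7 missed the threshold in 4 of the 6 fits that left out 1 library, at adjusted p from 0.0887 to 0.136, and both also missed it under quantile normalization and with no filter (0.0613 to 0.109) and Isg15 under median-ratio scaling and without a trend (0.0545 and 0.0582). Hmga2 was at -0.99 without the SMC-labelled library that has no number. Quantile normalization took Notch3 to 0.92, and Gm23935 (adjusted p = 0.0868) and Myl9 (adjusted p = 0.0528) missed the threshold with no filter. With siKlf4 in place of Scr, the log2 differences were 0.11 for Cnn1, 0.23 for Krt19, -0.25 for Limch1, 1.30 for Inhba, -0.74 for Agrn, 0.95 for Fbln2, 1.41 for Hmga2, -1.77 for Irf7, -1.67 for Isg15 and -1.76 for Usp18, all opposite in sign to Scr.

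TPM gives no depth, each group has 3 libraries, and an exact permutation test of 3 against 3 cannot go below p = 0.1. Cell type, table and source of the cells cannot be told apart.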

Other observations

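The processed pseudogene Gm13394 was at 476, 503 and 445 TPM in the PDGFR-β+ and 0.446, 1.04 and 0.714 TPM in the SMC-labelled libraries (log2 difference -8.11, SE 0.13, adjusted p = 1.02e-07 by limma). The antisense transcript Gt(ROSA)26Sor, at the locus that carries the reporter of the PDGFR-β+ line, was at 158, 78.0 and 141 TPM against 13.6, 11.8 and 12.9 TPM (log2 difference -3.14, SE 0.24, adjusted p = 4.60e-05), and the part of the reporter in this was not tested. Both genes were named after their values were seen.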
